A study of Drosophila melanogaster with 3 samples.

Results

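Intergenic Blimp-1 binding sites at a moderate distance from genes were examined in prepupae of Drosophila melanogaster. A member of this set was a merged peak of the authors' reproducible list on build dm6 whose summit lay outside every protein-coding gene body and more than 1000 bp, up to 5000 bp, from the nearest protein-coding transcription start site (TSS). The rule was met by 433 of 4990 reproducible sites. The other classes were 2303 promoter sites (summit within 1000 bp of a protein-coding TSS), 1389 intronic sites at more than 1000 and up to 10000 bp from a TSS, 429 far intergenic sites at more than 5000 bp and 436 sites of other kinds. The rule used position only. At its edges, a site nearest to Der-1 just beyond 1000 bp and a site nearest to CG14147 at 4992 bp were inside, with deposited signals of 349.6 and 401.6, while a site nearest to Svil at 1000 bp and a site nearest to CG4004 at 5015 bp were outside, with signals of 386.7 and 2609.

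The data were peak lists from chromatin immunoprecipitation and sequencing of 3 biological replicates of whole prepupae, both sexes pooled, of a stable transgenic line whose Blimp-1 carries GFP at its C terminus. An antibody to GFP was used for the precipitation. All samples formed 1 group with the same transgene, the age within the prepupal stage was not given, and no untreated or input sample was analysed here. Whole animals hold many tissues, so a strong signal in few cells and a weak signal in many cells cannot be told apart. Depth is unknown, because no read counts accompany the peaks.

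Blimp-1 is a zinc finger repressor related to mammalian PRDM1, which was first described as PRDI-BF1, a protein that binds the interferon beta promoter. In flies the gene is induced by ecdysone, the steroid hormone of moulting and metamorphosis, and its short-lived product delays the nuclear receptor ftz-f1 until the prepupal stage. Intergenic sequence a few kilobases from a start site often holds enhancers, short regions that control transcription from a distance. A peak in such sequence does not show which gene it acts on, so genes are named here only as the nearest ones.

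The sequences under the 5 strongest sites are shown first, and the sequence result over all members is described further on. Each is the 201 bp window centred on the summit on the plus strand of dm6, read 5′ to 3′, and capitals mark the stretch closest to the PRDI-BF1 consensus, which has 11 positions. The match at Atf3 is exact, those at CG13631 and CG31668 have 1 mismatch, and those at Blimp-1 and Hr38 have 2.
Blimp-1, chr3L:5627854-5628054, strand +: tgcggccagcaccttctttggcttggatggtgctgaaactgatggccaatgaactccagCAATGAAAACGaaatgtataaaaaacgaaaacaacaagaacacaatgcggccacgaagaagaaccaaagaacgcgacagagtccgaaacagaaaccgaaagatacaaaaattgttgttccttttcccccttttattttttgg
CG13631, chr3R:24768051-24768251, strand +: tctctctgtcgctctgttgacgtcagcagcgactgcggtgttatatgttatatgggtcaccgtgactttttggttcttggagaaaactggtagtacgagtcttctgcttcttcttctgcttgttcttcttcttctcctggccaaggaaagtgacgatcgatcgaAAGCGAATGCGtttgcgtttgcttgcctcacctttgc
Hr38, chr2L:20716114-20716314, strand +: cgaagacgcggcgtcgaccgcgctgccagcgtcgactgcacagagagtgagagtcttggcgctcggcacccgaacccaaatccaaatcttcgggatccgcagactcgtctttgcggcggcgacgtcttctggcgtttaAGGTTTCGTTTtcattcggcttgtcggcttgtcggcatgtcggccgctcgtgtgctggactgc
CG31668, chr2L:2203412-2203612, strand +: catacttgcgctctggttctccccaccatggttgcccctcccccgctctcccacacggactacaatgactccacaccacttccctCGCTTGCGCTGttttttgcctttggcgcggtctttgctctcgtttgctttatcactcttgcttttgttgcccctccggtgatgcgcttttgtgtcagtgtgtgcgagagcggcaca
Atf3, chrX:1276520-1276720, strand +: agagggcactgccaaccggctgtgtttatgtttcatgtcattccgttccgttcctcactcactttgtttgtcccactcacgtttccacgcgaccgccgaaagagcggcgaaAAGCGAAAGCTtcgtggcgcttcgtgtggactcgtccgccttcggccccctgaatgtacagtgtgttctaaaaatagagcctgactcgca

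The summit windows of 21 members held an exact match to the consensus. A selection of them besides Atf3 is given here as 41 bp around the match, in the orientation of the motif, with the match in capitals. All share the GAAAG stretch inside the match and differ at the degenerate positions. The site nearest to exp, stronger than those in the selection, also had an exact match, which is not printed here.
CG5639, chr3R:27597477-27597517, strand +: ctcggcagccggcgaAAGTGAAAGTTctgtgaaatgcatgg
CG10597, chrX:17229692-17229732, strand -: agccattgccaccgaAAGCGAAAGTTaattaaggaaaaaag
Ilp8, chr3L:17033460-17033500, strand -: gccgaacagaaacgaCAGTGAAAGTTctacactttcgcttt
CG32645, chrX:13137008-13137048, strand -: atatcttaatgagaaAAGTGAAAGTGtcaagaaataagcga
CG32376, chr3L:7545719-7545759, strand +: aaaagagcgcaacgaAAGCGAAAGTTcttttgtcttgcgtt
tal-1A, chr3R:13816133-13816173, strand +: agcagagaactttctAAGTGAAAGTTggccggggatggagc
tara, chr3R:16222391-16222431, strand +: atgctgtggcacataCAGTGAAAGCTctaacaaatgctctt
CG3473, chr2L:14562530-14562570, strand +: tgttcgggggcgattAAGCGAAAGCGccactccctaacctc
Osi5, chr3R:6229558-6229598, strand -: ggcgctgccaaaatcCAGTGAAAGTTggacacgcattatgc

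The strongest intergenic site lay 3029 bp upstream of Blimp-1 itself. The line carries a tagged Blimp-1 transgene, and whether it adds copies of the sequence around this gene was not tested. Signal was expressed as a multiple of the median site of the same replicate, here called relative signal. At Blimp-1 (FBgn0035625) it was 25.57, 30.03 and 17.85 in replicates 1, 2 and 3, a mean of 24.48 ± 6.163 (SD, n = 3). At CG13631 (FBgn0040600), 1200 bp upstream of the TSS, it was 14.58, 13.62 and 10.71. At Hr38 (FBgn0014859), which encodes an NR4A nuclear receptor of the ecdysone response, the site 1626 bp upstream had 13.14, 14.22 and 10.83. The Blimp-1 site stood above these 2 in every replicate, and each of the 3 sites was lowest in replicate 3.

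Next in order were genes of varied function. The site nearest to CG31668, 2654 bp downstream of its TSS and beyond the gene's end, had a relative signal of 10.14, 10.40 and 6.687. A further site of the same gene, 3743 bp downstream, had 6.595, 6.210 and 7.450, and was the only one of the 20 strongest sites with its highest value in replicate 3. Atf3 (FBgn0028550), which encodes a bZIP transcription factor, had 9.294, 8.222 and 5.788 at a site 1336 bp upstream. The sites nearest to Mst87F, a gene of the male germ line, and Act88F, the actin gene of the indirect flight muscles, had means of 7.815 ± 0.6847 and 6.687 ± 2.436 (SD, n = 3). The replicate values of Act88F, 6.358, 9.270 and 4.433, spread more than those of its neighbours in rank.

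The rest of the 20 strongest sites had mean relative signals of 4.554 to 7.039. They were nearest to CG34342, exp (a gene of tracheal tube growth), Eaf6 (a subunit gene of the NuA4 acetyltransferase complex), heca (headcase), CG5639, CG12617, CG9411, CG32462, CG10597, Rh5 (a rhodopsin gene of photoreceptors), Osi7 and Osi8. All 20 sites were among the strongest peaks of every replicate. When the members were ranked again with replicate 1, 2 or 3 left out, 19, 19 and 20 of the 20 were shared with the ranking on pooled signal.

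**Figure D1:**
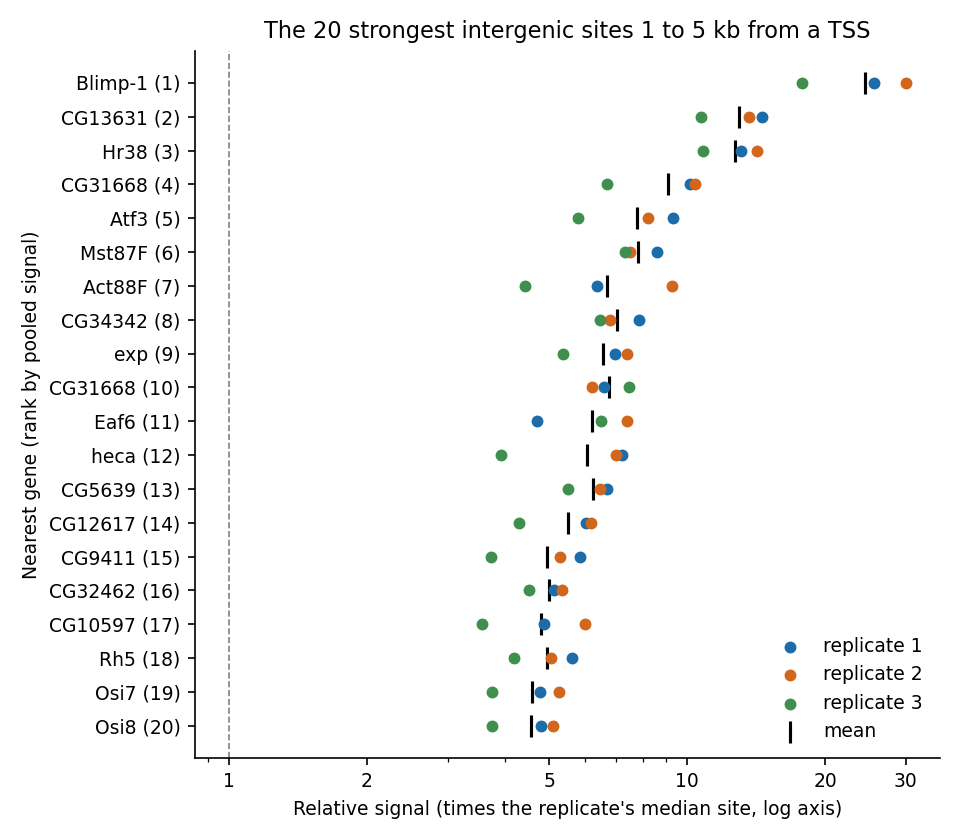
Relative signal (times the replicate's median site, log axis) of the 20 strongest intergenic sites in each of 3 replicates (points) with the mean (bar), one row per site with its nearest gene. The Blimp-1 site lies at 17.85 to 30.03 and every point lies above the median site at 1.

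The members as a whole lay near the middle of all sites in strength. Their deposited signal ran from 205.9 to 9860 with a median of 361.9 and quartiles of 261.2 and 557.3, against a median of 369.4 over all sites. The median relative signal was 0.9744, 0.9611 and 0.9834 in replicates 1, 2 and 3, a mean of 0.973 ± 0.01118 (SD, n = 3). Promoter sites had a mean of 1.081 ± 0.02746 (SD, n = 3), and their value was above that of the members in every replicate, although 3 replicates allow no permutation p under 0.25. These medians leave out sites without a peak in the replicate, which in replicate 3 were 20.89% of promoter sites and 3.926% of members. Of all sites, 25% were in the highest signal quartile. This held for 94 of 433 members (21.71%, Wilson 95% interval 18.08 to 25.83) and 686 of 2303 promoter sites (29.79%, 27.95 to 31.69), and Fisher's exact test, two-sided and adjusted after Benjamini and Hochberg over 20 class comparisons, gave p = 0.004032. The gap narrowed to -5.978 percentage points with replicate 3 left out (adjusted p = 0.1377) and to -6.48 points when only peaks with at least the median signal were kept (adjusted p = 0.3354, both by Fisher's exact test). The shares of intronic sites (22.82%, adjusted p = 0.8132) and far intergenic sites (17.02%, adjusted p = 0.2436) did not differ from that of the members past the threshold in Fisher's exact test.

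Support by single replicates was steadier at the members than at promoters. A replicate supported a site when 1 of its 4990 strongest peaks overlapped it. The members were supported at 80.14%, 78.29% and 82.45% by replicates 1, 2 and 3, and promoter sites at 86.15%, 83.89% and 65.61%. This was not particular to the members. Intronic sites, at 81.64%, 81.5% and 79.63%, were steadier still, and far intergenic sites had 79.72%, 76.92% and 86.48%. The sites without a peak in replicate 3, given above, had none in its whole list of 30000. Of the members, 266 were supported by all 3 replicates, 81 by 2, 83 by 1 and 3 by none. The share with full support was 61.43% of members and 53.89% of promoter sites, against 56.9% of all sites, and Fisher's exact test between the members and promoter sites gave an adjusted p of 0.01891. This order turned round when support was asked of replicates 1 and 2 only, where the difference was -7.685 points (adjusted p = 0.004639 by Fisher's exact test). The difference was -0.4448 points when only peaks with at least the median signal were kept (adjusted p = 1, Fisher's exact test). Full support of intronic sites (60.76%) and far intergenic sites (60.14%) was within 1.3 points of that of the members.

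**Figure D2:**
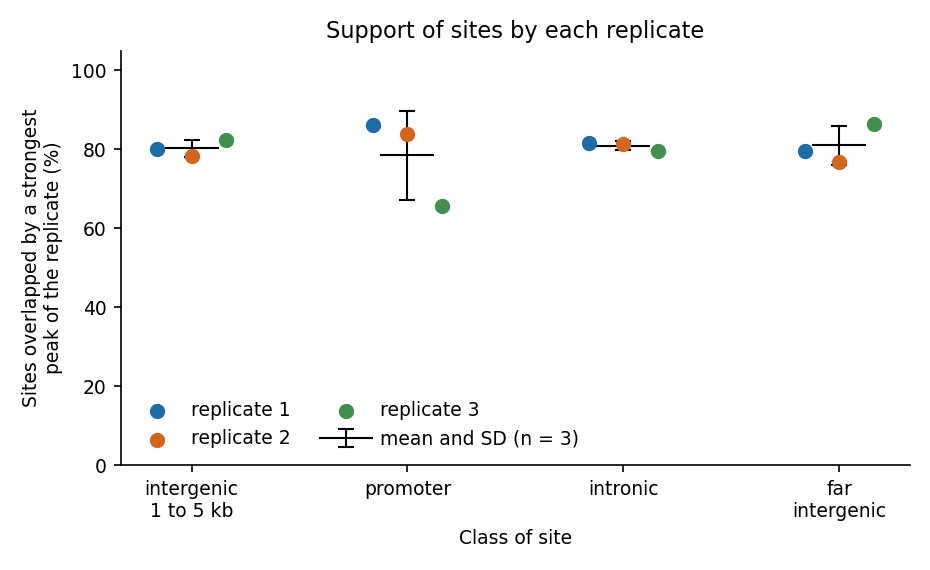
Share of sites (%) overlapped by a strongest peak of each replicate (points), with the mean and SD (bars, n = 3), for the intergenic sites 1 to 5 kb from a TSS and the other classes. The points of the intergenic sites lie between 78.29% and 82.45%, while replicate 3 stands apart at 65.61% for promoter sites.

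Across members, the relative signals of the replicates ranked alike. Spearman's rho was 0.829 between replicates 1 and 2 (430 members with both values), 0.7182 between 1 and 3 (415 members) and 0.5907 between 2 and 3 (414 members). These are descriptions, since the points share libraries. Support and pooled signal come from the same libraries, and a replicate's support asks for a strong peak, so these measures are tied by definition. Full support was 2.752% in the lowest signal quartile of members, 53.7% and 89.81% in the middle ones and 100% in the highest.

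Binding in this territory was about as dense as over the genome. Intergenic sequence at this distance from a TSS made up 8.876% of the chromosome arms and held 8.677% of sites (Wilson 95% interval 7.928 to 9.491), a difference that did not pass the exact binomial test (two-sided p = 0.6363). This came to 36.44 members per Mb of territory, against 37.27 sites per Mb of the arms. When noncoding genes were also counted as genes, the rule found 8.577% of sites in 10.11% of the arms (p = 0.0002714, exact binomial test), so a lower density depended on that choice. By chromosome arm the density was 34.45 on 2L, 32.13 on 2R, 48.77 on 3L, 34.16 on 3R and 32.55 on X. The 95% interval of arm 3L, 40.4 to 58.36, did not reach the other values named, but it overlapped their intervals. The upper limits of those were 42.65 on 2L, 40.67 on 2R, 41.55 on 3R and 41.9 on X. Arm 3L was also the densest of these arms over all sites, at 41.09 sites per Mb against 35.51 to 37.85, and that value lay inside the members' interval. Chromosome 4 had 1 member. No difference between arms was tested.

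Within the territory, members lay more often close to the TSS and on its upstream side. Up to 2000 bp from the TSS there were 163 of 433 members (37.64%), against 31.47% of the territory (exact binomial test, two-sided p = 0.007051). Their density was 43.58 per Mb at that distance, and 31.61, 36.25 and 31.69 in the following bins. Upstream of the nearest TSS lay 313 of 433 members (72.29%), against 65.87% of the territory (exact binomial test, two-sided p = 0.004522). Both tests take the members as independent draws. Many lay near another site or shared a nearest gene, so these p-values may be too small. Taking each replicate's own strongest peaks in place of the pooled list gave 72.86% ± 0.7055 upstream and 38.8% ± 0.8938 at up to 2000 bp (SD, n = 3). With members limited to those supported by replicates 2 and 3, the shares were 71.38% upstream (p = 0.05201) and 36.4% in the nearest bin (p = 0.08373, exact binomial tests), neither past the threshold. Of the 220 members left with only peaks of at least the median signal, 70.91% lay upstream (exact binomial test, p = 0.1183). This upstream share did not pass the threshold. The share of these members in the nearest bin, 37.73%, still passed (exact binomial test, p = 0.04988). Neither side differed much in strength, with median signals of 358.7 upstream and 375.4 downstream.

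**Figure D3:**
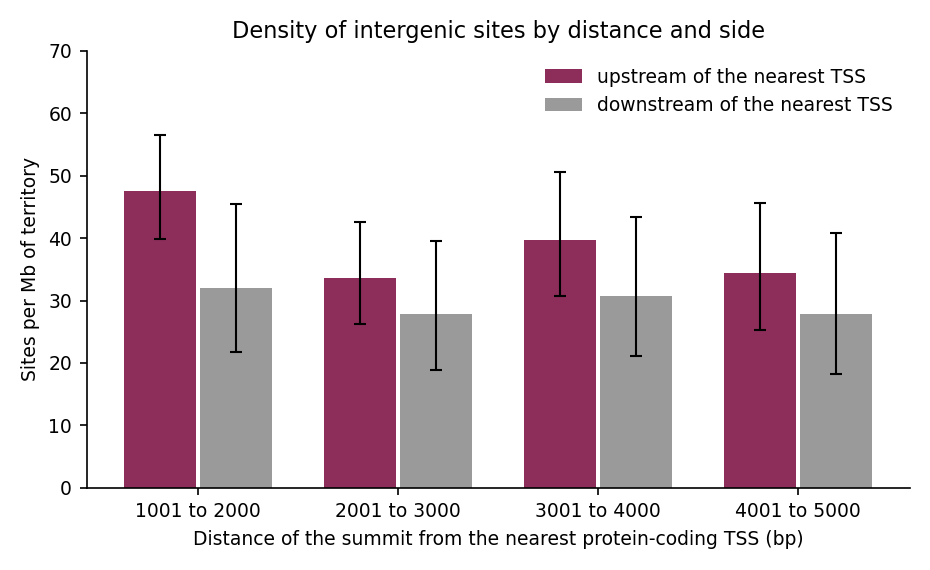
Density of the intergenic sites (sites per Mb of territory) by distance from the nearest protein-coding TSS, upstream (left bars) and downstream (right bars), with exact 95% binomial intervals. The upstream bar of the nearest bin is the tallest at 47.61 per Mb, and the downstream bars lie between 27.81 and 32.05.

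The arrangement of the flanking genes moved with the side. Between divergent genes, where every base is upstream of its nearest gene, lay 164 members (37.88%, against 29.59% of the territory), a density of 46.64 per Mb. Tandem genes flanked 203 members (46.88%, against 51.96%) and convergent genes 66 (15.24%, against 18.17%), at 32.88 and 30.57 per Mb. The gap between the flanking coding genes had a median of 10120 bp, with quartiles of 5301 and 17720 bp. Not all of this sequence was free of transcripts: 59 members (13.63%) had their summit inside an annotated noncoding gene, against 7.579% of the territory, and 108 (24.94%) lay inside one or within 1000 bp of its TSS, against 13.82%. These were mostly genes annotated as ncRNA (102 members), with 4 members at tRNA genes, 2 at pseudogenes and 1 at a snoRNA gene, and a member could count under more than 1 kind. These shares were not tested.

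Members often stood in company. Another site lay within 5000 bp of 301 members (69.52%), of 53.37% of promoter sites and of 60.1% of all sites, and by Fisher's exact test the difference from promoter sites had p = 3.903e-09 after adjustment. Intronic sites (68.03%, adjusted p = 0.8132) and far intergenic sites (63.87%, adjusted p = 0.2436) did not differ from the members past the threshold in Fisher's exact test. A promoter site was present at the nearest gene of 160 members (36.95%), whereas 18.7% of all protein-coding genes had one. This share was below that of intronic sites (54.5%, adjusted p = 3.903e-09) and above that of far intergenic sites (28.21%, adjusted p = 0.02854, both Fisher's exact test). The difference from far intergenic sites fell to between 5.581 and 6.36 points when only sites supported by both replicates of any pair were kept. The adjusted p was then 0.3403 to 0.4079 (Fisher's exact test). Gene length and number of TSSs, which raise the chance of a promoter site, were not matched between the classes.

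The members had 344 different nearest genes, 2.47% of the 13945 protein-coding genes. Of these, 277 had 1 member, 49 had 2, 15 had 3, 2 had 4 and 1, Dyro, had 5. The genes with 3 or more members were named after their counts were seen. The 5 members of Dyro lay 1135 to 3442 bp upstream, with mean relative signals of 0.619 to 2.039, and none ranked above 81 among members. Rh5 had 2 members on each side of its gene, and its 4 mean relative signals ran from 1.492 to 4.952. The other genes with 3 or more were tara, with 4, and CG13898, CG4218, CG43354, CG43389, CG43401, CG43737, CG5953, CG6168, Cpr12A, Eaf6, dally, kay, mtSSB, muc and ovo, with 3 each. Of these, 4 genes of known function are described, picked for that reason and not as a theme. The 4 members of tara (taranis, a cell cycle and transcription regulator) lay 1091 to 3783 bp upstream, the strongest at 2.249 ± 0.8911 (SD, n = 3). At kay, the gene of the AP-1 subunit Fos, 3 members lay 1971 to 3594 bp upstream and the strongest had 3.042, 2.640 and 4.001. At dally, which encodes a glypican that shapes Wnt and BMP gradients, 3 members lay 1752 to 4269 bp upstream and the strongest had 2.759, 3.394 and 2.059. At ovo, the locus of the epidermal trichome factor Shavenbaby, 3 members lay 1854 to 3656 bp upstream and the strongest had 2.699, 2.874 and 1.786. In each of these genes the other members were weaker, down to 0.6019 at kay.

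Ecdysone regulators, the factors that relay the hormone pulse, were the nearest genes of 5 members (1.155%), against 2.244% of all sites, and 5 of the 19 listed genes had a member. All 5 members lay upstream, as did 72.29% of all members. All 5 genes also had a promoter site, as did 14 of the 19 listed genes. Besides Blimp-1 and Hr38, described above, the member at Eip78C, a nuclear receptor gene, had 2.983, 2.847 and 1.752 at 1654 bp. The member at Kr-h1, a zinc finger gene that answers juvenile hormone, had 1.038, 1.277 and 0.6676 at 1024 bp. That at Eip93F, the pipsqueak domain factor of late metamorphosis, had 0.5444, 0.6902 and 0.8359 at 4942 bp. The 5 sites ran from the strongest member to rank 388 of 433. Their median deposited signal was 1021, against 361.9 over all members. Among genes of hormone synthesis and turnover, 1 of 12 had a member, shd, which encodes the enzyme that makes 20-hydroxyecdysone, at 0.8118, 1.175 and 0.8635. Its member made up 0.2309% of members, and the list's sites 0.1002% of all sites.

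Of 30 ecdysone late and stage genes, ImpE1 and ImpE2, ecdysone-induced genes of imaginal disc eversion, had 3 members between them (0.6928%, against 0.2004% of all sites). Their strongest sites had mean relative signals of 1.742 ± 0.5617 and 1.126 ± 0.5312 (SD, n = 3). Of 139 genes for apical matrix and cuticle proteins, 8 had a total of 10 members (2.309%, against 0.9218% of all sites). The strongest lay at the cuticle protein genes Cpr65Ec, with 2.700, 3.422 and 1.671, and TwdlE, with 2.175, 2.834 and 1.909. The others ran from 0.5458 at Ccp84Ag to 1.058 at Cpr12A, a gene with 3 members. Of 29 genes for cuticle tanning and chitin, verm, which encodes a chitin deacetylase, had 2 members (0.4619%, against 0.2605% of all sites) at 3748 and 4847 bp upstream, with means of 1.388 ± 0.3473 and 1.321 ± 0.3687 (SD, n = 3).

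Signalling genes were the nearest genes of 13 members (3.002%, against 2.084% of all sites), at 11 of 52 listed genes, and all 13 lay upstream, as did 72.29% of all members. The strongest were at ex, a gene of the Hippo pathway, with 1.697, 1.601 and 2.410, and at nkd, a gene whose product restrains Wnt signalling, with 1.478, 1.381 and 1.914. Both were highest in replicate 3. The other genes of this list with members were fng, fz, ft, mib1, Dad, upd3, kek1, aop and ds. In the Enhancer of split and Bearded complexes, the Notch target clusters, 3 of 15 genes had 4 members (0.9238%, against 0.2004% of all sites), led by E(spl)malpha-BFM at 2.183 ± 0.4308 and E(spl)mgamma-HLH at 1.046 ± 0.4126 (SD, n = 3). Of 37 imaginal disc patterning factors, bi and eya had 1 member each, at 0.9704 ± 0.1869 and 0.6866 ± 0.1198 (SD, n = 3), which made up 0.4619% of members, against 0.9619% of all sites.

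The proapoptotic gene rpr was the only one of 33 cell death and autophagy genes with a member, and it had 2, at 2751 and 4431 bp upstream, with means of 1.349 ± 0.1844 and 0.6411 ± 0.1446 (SD, n = 3). These were 0.4619% of members, against 0.4609% of all sites for the list, a share at the background. Among 23 heat shock and stress genes, foxo, a transcription factor of insulin signalling, and Thor, which encodes the translation inhibitor 4E-BP, had 1 member each, at 1.751 ± 0.3683 and 1.389 ± 0.2437 (SD, n = 3), or 0.4619% of members, against 0.3006% of all sites. Of 25 antimicrobial genes, PGRP-SA, a peptidoglycan receptor gene of the Toll pathway, had a member at 1.217 and 1.226 in replicates 1 and 2 and no peak in replicate 3, or 0.2309% of members, against 0.06012% of all sites. Of 179 chemoreceptor genes, Gr93d, Gr93b and Gr93a, neighbours on arm 3R, had 1 member each (0.6928%, against 0.3206% of all sites), with Gr93d at 3.026 ± 0.7068 and Gr93b at 0.6272 ± 0.0572 (SD, n = 3). The hemocyte and fat body GATA factor gene srp had a member at 0.6236 ± 0.1155 (SD, n = 3), which is 0.2309% of members, against 0.2405% of all sites for the fat body list and 0.2004% for the hemocyte list. Act88F was the only gene with a member among 21 muscle genes (0.2309%, against 0.2806% of all sites). No member was nearest to any of 93 listed cytoplasmic ribosomal protein genes, which had 62 sites in all, or of 8 listed Hox genes (10 sites). The same held for the 15 tracheal genes (16 sites) and 20 neuronal genes (6 sites) of the lists. The lists do not hold every gene of a kind: exp, of tracheal tube growth, and Rh5, of photoreceptors, had members and are in none of them. Since the lists were chosen with results of these data known, these counts were not tested.

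Sequences close to the PRDI-BF1 consensus were centred on the members' summits. The consensus with at most 1 mismatch, on either strand, was present within 100 bp of the summit at 98 members (22.63%) and at 33 (7.621%) in a window of the same size 500 bp away, an adjusted p of 1.004e-08 (exact McNemar test, two-sided, Benjamini-Hochberg over 12 motifs). Exact matches were present at 21 summits (4.85%) and 3 flanks (0.6928%), a ratio of 7 with an adjusted p of 0.001109 (exact McNemar test). The core of the consensus, GTGAAAG, lay in 8.314% of summit windows and 3.464% of flank windows (adjusted p = 0.0114), and the shorter GAAAG, which lies inside the core, at 56.12% and 36.49% (adjusted p = 1.917e-08, both exact McNemar tests). The result for GTGAAAG was no longer past the threshold with windows of 200 bp each side or with noncoding genes counted as genes. Summit windows were slightly lower in GC content than the flanks, at 40.14% and 41.69%. In each replicate's own strongest peaks the consensus with at most 1 mismatch was at 23.62% ± 3.397 of members' summits and 7.123% ± 0.379 of flanks (SD, n = 3).

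**Figure D4:**
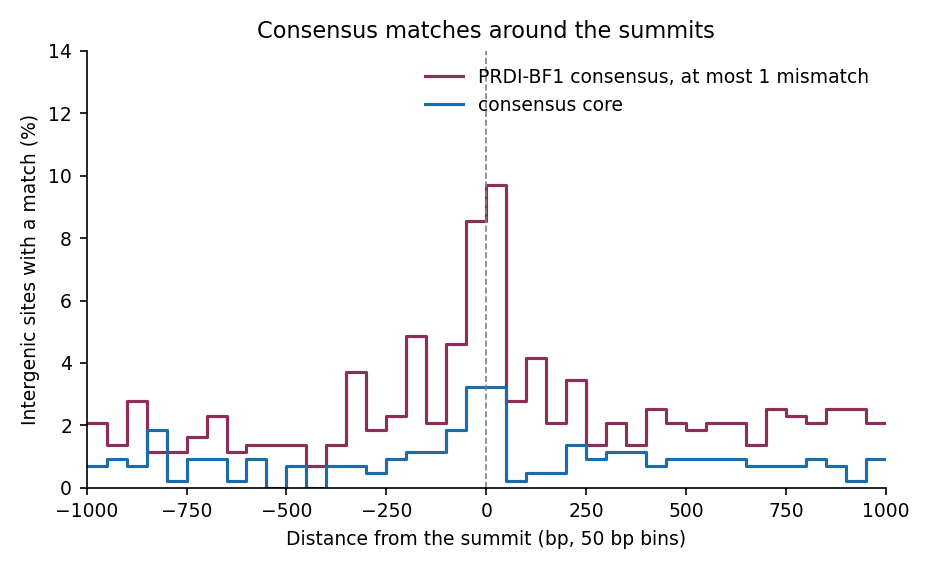
Share of the intergenic sites (%) with a match in bins of 50 bp by distance from the summit. The lines are for the PRDI-BF1 consensus with at most 1 mismatch and for GTGAAAG, labelled as the consensus core although it is only a form of it. Both lines are highest in the bins on either side of the summit, where the consensus reaches 8.545% and 9.7%.

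The other motifs searched did not pass this comparison. GAGAG, bound by GAGA factor, lay in 29.56% of summit windows, in 23.79% of flank windows and in 32.04% of windows over all sites (adjusted p = 0.1248, exact McNemar test). It passed the exact McNemar test against the flank at lower coordinates, where the difference was 12.93 points (adjusted p = 3.090e-05). By the same exact test it also passed against the flank 1000 bp away at higher coordinates (7.621 points, adjusted p = 0.02999), with windows of 200 bp each side (8.776 points, adjusted p = 0.02042) and with only peaks of at least the median signal (12.27 points, adjusted p = 0.01079). The call for this motif therefore depended on the setting. Summit and flank shares were 4.388% and 4.157% for CAGGTA (Zelda), 0.9238% and 0.9238% for AACCGGTT (grainy head), 2.771% and 3.464% for AGGTCA (nuclear receptors), 60.97% and 65.59% for CANNTG (E-box), 5.543% and 5.543% for TGANTCA (AP-1), 3.926% and 5.081% for ATGCAAAT (POU factors), and 0% and 0.2309% for TATCGATA (DRE). Over all sites these motifs were present at 4.549%, 0.8417%, 4.128%, 61.18%, 4.77%, 2.986% and 1.443% in that order. A match describes the letters of the window only, and no match says nothing about the factor.

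A search of all 2080 6-mers, both strands joined, gave 5 that were more frequent at summits (0.24%) and 0 that were less frequent (0%). At an unadjusted p under 0.05 there were 70 and 84. The 5 were GAAAGT, in 26.79% of summit windows and 12.7% of flank windows (adjusted p = 0.0003906), AAGTGA, at 22.63% and 9.7% (adjusted p = 0.0004202), TGAAAG, at 25.17% and 13.16% (adjusted p = 0.006704), AGAAAA, at 34.18% and 21.48% (adjusted p = 0.02026), and CGAAAG, at 21.71% and 11.55% (adjusted p = 0.03497), all by the exact McNemar test adjusted over the 6-mers. GAAAG lies in 3 of them, out of 8 such 6-mers in all, and AAGTGA is also part of exact matches printed above, so these 4 are not results separate from the consensus. With the flank at lower coordinates 8 6-mers were more frequent, 3 of them shared.

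Stronger members carried the sequence more often. The consensus with at most 1 mismatch was present at 35.19% of members in the highest signal quartile and at 18.52%, 20.37% and 16.51% in the quartiles below it. The highest against the lowest quartile gave an odds ratio of 2.744 (Fisher's exact test, two-sided p = 0.001901). Exact matches numbered 11 in the highest quartile and 2, 4 and 4 in those below. The closest match in the window had 0 mismatches at 21 members, 1 at 77, 2 at 187, 3 at 144 and 4 at 4. Strong sites without a close match also occurred, such as those of Blimp-1 and Hr38 with 2 mismatches each.

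For 3 of the exact matches printed above the replicate values are given here, singled out after they were seen. The site of Ilp8, which encodes the insulin-like peptide that delays metamorphosis when tissues are damaged, had 4.109, 3.533 and 4.107 at 1440 bp upstream. That of tal-1A, the tarsal-less locus of small peptides that switch Shavenbaby into an activator, had 2.774, 2.710 and 2.612 at 3126 bp downstream, the smallest SD, 0.08157, among the sites printed above with an exact match. The site of CG32376 had 3.582, 3.528 and 2.946.

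In sequence the members did not stand apart from other classes. The consensus with at most 1 mismatch was at 22.63% of members, 21.54% of promoter sites, 23.33% of intronic sites, 18.41% of far intergenic sites and 22.1% of all sites. GTGAAAG was at 8.314% of members and 7.772%, 10.3% and 6.294% of the same classes, and 8.5% of all sites. GAAAG was at 56.12% of members and 53.32%, 58.1% and 54.78%, and 55.4% of all sites. None of the 9 comparisons passed Fisher's exact test after adjustment, with adjusted p from 0.3246 to 0.8217, which does not show that the shares are equal.

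**Figure D5:**
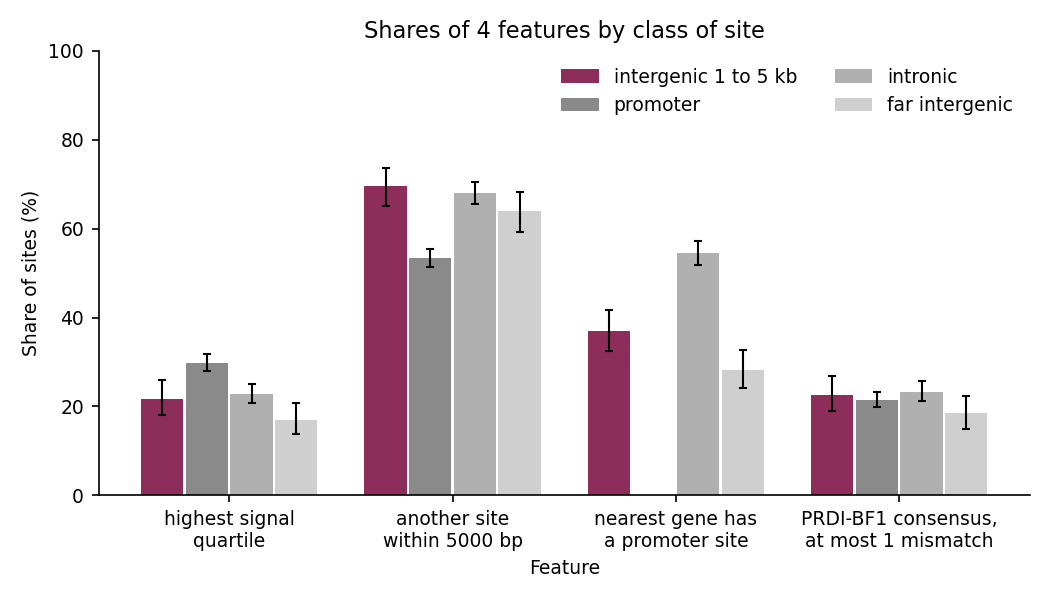
Share of sites (%) with each of 4 features in the intergenic sites 1 to 5 kb from a TSS and in promoter, intronic and far intergenic sites, with Wilson 95% intervals. A site nearby was present at 69.52% of the intergenic sites and 53.37% of promoter sites, while the consensus shares lie between 18.41% and 23.33%. The share with a bound promoter is not drawn for promoter sites, which have one by definition.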

How the data were processed

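The values are narrowPeak lists deposited by the authors for 3 biological replicates of 1 group and for the pooled replicates. Signal means column 7 as deposited. With scaling, aligner and peak caller not given in the sources used here, it served only for ranks and ratios within a list. Column 10, as deposited, places the summit relative to the peak start. The 5573 reproducible peaks on dm6, thresholded by the authors on the irreproducible discovery rate, were merged where they overlapped, and the strongest summit was kept. Each relaxed replicate list holds 30000 peaks, so its length is a limit of the list. A replicate's signal at a site was that of its strongest peak overlapping by at least 1 bp, scaled to that replicate's median site, and means and SDs are over replicates with a peak. Since the depth is unknown, the number of replicates limits the precision.

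Genes came from Ensembl release 115 (FlyBase 6.54) on the same assembly, without transposable elements, and sequences from the RefSeq copy of dm6. Coordinates count from 1. Territory is the intergenic sequence of the arms that meets the rule. Of 433 members, 3 had tied nearest genes. Tests were run in Python 3.11.15 with scipy 1.17.1 and checked on simulated data. Sites are the units, so p-values describe these lists and not animals. Sites close together are not independent, and no test allowed for this. Whether the replicates came from separate cultures of flies is known only from the word biological in the labels. The threshold was 0.05.

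Members and the 19 gene lists (421 entries, 20 unmatched) were chosen with earlier results of these data known. Named genes were those nearest to the 20 strongest members, all ecdysone regulators with a member and up to 2 members of every other list, and the 5 6-mers with the smallest p. Alternatives covered the peak threshold, the gene set, merging, windows, flanks, overlap, distances, scaling and each replicate left out. For the site tests, leaving out a replicate meant keeping only sites supported by both others, with the pooled list and signal unchanged. For full support it meant asking only those replicates. Leaving out a replicate for median relative signal and for the 20 strongest members was added after seeing the data. The dm3 lists and the possible control were not analysed here.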

Additional observations from a re-analysis of the deposited data

How the results depend on the processing

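Of 294 alternative values of the tested and summarised results, 270 kept their call or stayed within the spread between replicates. A test that passed in neither setting counts as kept, so this total says little about the results that passed. Of the others, 13 no longer passed and 5 passed only in the alternative. A further 4 were reversed, with a pass in at least 1 of the settings, and 2 summarised values moved. In 21 of the 270, from 10 results, a difference that did not pass its test changed sign and still did not pass. The 60 relative signals of the 20 strongest members with a replicate left out each moved by less than 1 SD. With 3 replicates this was fixed in advance, since leaving 1 out cannot move a mean by 1 SD. The same holds for the median relative signal with a replicate left out, which is among the 270. The cause of the other changes was not tested. With all annotated genes in the rule (428 members, 325 shared), the members' share of sites was 8.577% and the summit excess of GTGAAAG 3.738 points. With only peaks of at least the median signal (220 members), the upstream share was 70.91%, the difference from promoter sites in full support was -0.4448 points and in the highest quartile -6.48 points, the share with a bound promoter differed by -9.39 points from intronic and by 4.135 points from far intergenic sites, and the summit excess of GAGAG was 12.27 points. Windows of 200 bp gave an excess of 4.388 points for GTGAAAG and 8.776 for GAGAG, the flank at lower coordinates 12.93 and the flank 1000 bp away 7.621 for GAGAG. For each replicate in turn, only sites supported by both other replicates were kept, with the pooled list and signal unchanged. The share at up to 2000 bp then ran from 36.4% to 38.31% and the upstream share from 71.38% to 71.86%. The highest quartile against promoter sites ran from -11.92 to -5.978 points and the bound promoter against far intergenic sites from 5.581 to 6.36 points. Full support asked of both other replicates, over all sites, ran from -7.685 to 10.16 points against promoter sites. Full support against promoter sites was 5.818 points when the replicate's peak had to hold the summit, and against far intergenic sites -3.92 points with all relaxed peaks (adjusted p = 0.002077, Fisher's exact test). Another site within 10000 bp was less common than at intronic sites by a difference of -5.537 points (adjusted p = 0.02685, Fisher's exact test). The flank at lower coordinates gave 8 6-mers, and scaling to the median peak of the relaxed list gave a median relative signal of 3.928. No paired analysis was possible because all samples form 1 group. Depth is unknown, so no limit from read counting can be given.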

Other observations

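Genes of the Osiris family, an insect family of membrane proteins that lie in a cluster on arm 3R, were chosen for a look after Osi7 and Osi8 appeared among the strongest sites. Members were nearest to 4 of 25 Osi genes and numbered 5, out of 14 sites of any class nearest to these genes. Of all protein-coding genes 2.47% had a member, and of all sites 8.677% were members. Their signals ran from 266.2 to 1823. Osi7 had a relative signal of 4.765, 5.250 and 3.748 in replicates 1, 2 and 3, and Osi8 had 4.806, 5.103 and 3.753. Osi5 had an exact consensus match at a site with 1.456, 2.013 and 0.6506, so that replicate 3 was below its median site there while the other replicates were above theirs. Osi24 had 0.799, 0.7464 and 0.6997. The strongest member of Eaf6, the neighbour of Blimp-1 on arm 3L, had 4.704, 7.399 and 6.490, and 2 weaker members of the same gene had means of 1.116 ± 0.5179 and 0.4973 ± 0.2322 (SD, n = 3). No test was run on these values.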
